A study of Mus musculus with 17 samples.

Results

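The 7 transplanted mouse mammary tumours that lacked Rb1 and p53 were compared by the route through which Cre recombinase had reached the founding cells. They are 7 of the 17 samples of the series, and they were taken by their labels: every tumour given as Rbp53 deleted whose tumour model carries the word Transplant. In 2 of them (ACRP-1 and ACRP-2, here Ad-Cre replicates 1 and 2) Cre came from an adenovirus, labelled Ad-CMVcre. In the other 5 (TMCRP-1, TMCRP-3, TMCRP-985, TMCPR-1014 and TMCRP-1123, here MMTV-Cre replicates 1 to 5) it came from the MMTV-Cre transgene. All 7 share the labelled deletion of both genes, a mixed strain background and transplantation, so these labels are the same in both groups. A label of mixed does not show that the strain make-up of the tumours was the same. The labels describe the tumours as independent and also call their tissue primary, and they name neither the donor nor the host of a transplant, nor any age or time after Cre. Nothing in them says how many separate mice stood behind the 7 tumours, so every p-value measures the spread between these samples.

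The remaining 10 arrays hold 2 MMTV-Cre Rb/p53 tumours that are not labelled as transplants (1 nulliparous, 1 parous), 3 MMTV-Cre p53 tumours and 5 samples of normal mammary tissue. One p53 tumour carries a title that names Rbp53, and it was placed by its source, description and tissue, which say p53 deleted. These arrays serve below as reference levels and in wider fits. Total RNA of each sample was hybridised to 1 Affymetrix Mouse Gene 1.0 ST array, and levels are log2 values, so that a difference of 1 is a doubling. Levels of different genes are not set against each other, because each probe set has its own brightness.

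Rb1 encodes the retinoblastoma protein, which holds the E2F transcription factors in check, and Trp53 encodes p53, which halts or kills damaged cells. Cre cuts out DNA that lies between its recognition sites. An adenovirus delivers it for a short time to whichever cell it infects, and the cytomegalovirus promoter works in most cell types. The MMTV promoter, from mouse mammary tumour virus, drives Cre lastingly, mainly in mammary epithelium. The 2 routes can therefore delete the same genes in different starting cells, which is the question that a comparison between transplants of both kinds addresses.

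No gene separated the 2 Ad-Cre from the 5 MMTV-Cre transplants after correction for the 19938 genes tested. With limma and Benjamini-Hochberg adjustment 0 genes passed a threshold of 0.05 (0% of those tested), and the lowest adjusted p was 0.283, for Pcdh7. At an unadjusted p below 0.05 there were 1058 genes, which is 5.31% of those tested. Of these, 578 had the higher mean in the Ad-Cre tumours (2.9% of all genes) and 480 the lower mean (2.41%). Both Ad-Cre tumours lay above all 5 MMTV-Cre transplants for 765 genes (3.84%) and below all of them for 1431 (7.18%). The median difference over all genes was -0.03, and 276 genes differed by at least 1 in the group means, 237 of them higher and 39 lower in Ad-Cre. The standard error of a difference had a median of 0.15, with quartiles of 0.11 and 0.22.

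Neither Ad-Cre tumour had the other as its closest transplant. Pearson's r between them, across the 19938 genes, was 0.966, and 1081 genes differed by at least 1 between them. Over the 10 pairs of an Ad-Cre with an MMTV-Cre tumour, r ran from 0.952 to 0.979 (median 0.972), with 534 to 1562 genes differing by that much. Over the 10 pairs of MMTV-Cre transplants it ran from 0.959 to 0.977 (median 0.973), with 625 to 1345 genes. Ad-Cre replicate 1 was closest to MMTV-Cre replicate 1 (r = 0.979) and replicate 3 (r = 0.979). Ad-Cre replicate 2 was closest to MMTV-Cre replicate 4 (r = 0.9745). Its next closest was Ad-Cre replicate 1, and its r with the other transplants ran from 0.952 to 0.965. Genes are not independent replicates, so these values describe the arrays and carry no p.

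A principal component analysis of the 7 arrays gave the same picture. The first component held 29.8% of the variance, and its scores ran from -36 for MMTV-Cre replicate 2 to 48.6 for Ad-Cre replicate 2, with Ad-Cre replicate 1 near the middle at -4.02. The second component (24% of the variance) placed the Ad-Cre tumours at -11.3 and 20.6, inside the MMTV-Cre range of -29.2 to 31. On neither component did the Ad-Cre tumours lie together at one end.

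Ad-Cre replicate 2 stood apart from the other transplants, and the results below are therefore given tumour by tumour. Its 25th percentile of probe sets was 6.37, the lowest of all arrays, and its interquartile range was 3.18 against 2.98 to 3.05 in the other transplants. Without Ad-Cre replicate 1, so that replicate 2 was set alone against the MMTV-Cre transplants, 52 genes were called higher and 2 lower. Without Ad-Cre replicate 2 a single gene was called, Dmbx1, a homeobox transcription factor. A lone sample is assumed in such a fit to vary like the other group. The level of 6.37 also serves here as the low reference: a value below it was not shown to be above background.

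**Figure D1:**
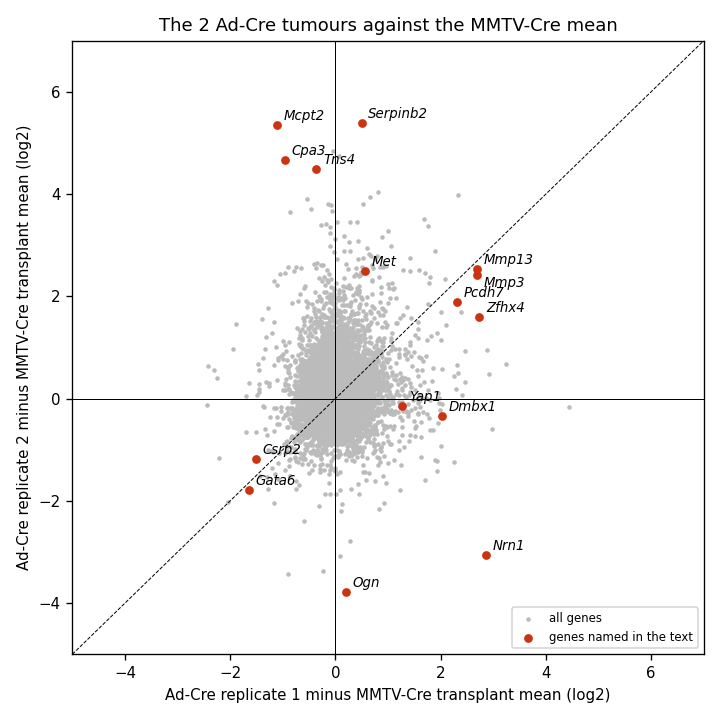
Each point is 1 of 19938 genes, placed by its level in Ad-Cre replicate 1 (x axis) and in Ad-Cre replicate 2 (y axis), both minus the mean of the 5 MMTV-Cre transplants (log2); the dashed line marks equal differences. Mmp3, Mmp13, Pcdh7, Zfhx4, Csrp2 and Gata6 lie near the dashed line, whereas Tns4 and Serpinb2 are displaced mainly in replicate 2, and Mcpt2, Cpa3 and Nrn1 lie on opposite sides of the MMTV-Cre mean in the 2 tumours.

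The difference with the lowest p was that of Pcdh7, a protocadherin, a cell adhesion protein of the cadherin family. Its level was 9.58 and 9.16 in the Ad-Cre tumours, and 7.53, 7.25, 7.10, 7.51 and 6.93 in MMTV-Cre replicates 1 to 5. The groups did not overlap, and the gap between them was wider than the range of either. Pcdh7 was taken for its low p in these same tumours, so this separation is no further result. The difference was 2.10 ± 0.20 (SE), with a 95% interval from 1.63 to 2.58 before any correction. Against the other reference arrays, Pcdh7 was at 7.51 and 7.31 in the MMTV-Cre tumours not labelled as transplants and between 9.11 and 9.36 in normal mammary tissue. The Ad-Cre tumours thus held this gene at about the level of normal tissue.

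Pcdh7 passed the threshold where further arrays shared the estimate of the spread. With all 12 tumours in the fit it was the only gene called (0.00502% of those tested, adjusted p = 0.0121). With all 17 arrays 7 genes were called higher in Ad-Cre (0.0351%) and 0 lower; Pcdh7 led them with an adjusted p of 9.12e-05. The 9 Rb/p53 tumours alone gave 0 calls, with an adjusted p of 0.0794 for Pcdh7. When the 2 tumours not labelled as transplants were joined to the MMTV-Cre group, Pcdh7 was again the only call (difference 2.06 ± 0.18, adjusted p = 0.0207). These fits compare the same 2 Ad-Cre tumours and add no replicate of them.

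The other 6 genes called with all 17 arrays differed by less. Their calls contrast the same transplants, so the separation of the groups described here is no further result. Tvp23a, a Golgi membrane protein gene, was at 8.42 and 7.83 in Ad-Cre and between 6.77 and 6.99 in the MMTV-Cre transplants (1.20 ± 0.15, adjusted p = 0.00917). Naalad2, which encodes a peptidase, was at 7.19 and 6.98 against 5.34 to 6.03, all below the low reference (1.47 ± 0.21, adjusted p = 0.0281). Tnfrsf26, a decoy receptor of the tumour necrosis factor family, was at 8.36 and 8.67 against 6.78 to 7.44 (1.31 ± 0.20, adjusted p = 0.0418). In each of these genes both Ad-Cre tumours lay above every MMTV-Cre transplant. The same held for Slc35g2 (8.05 and 8.09 against 7.14 to 7.49; adjusted p = 0.0418) and for En1, a homeobox factor of limb and brain patterning (7.82 and 7.68 against 7.03 to 7.18; adjusted p = 0.0429). Gabrb1, a subunit of a receptor for the transmitter GABA, was at 6.10 and 6.43 against 5.25 to 5.40 (adjusted p = 0.0281), so that all the MMTV-Cre values and 1 Ad-Cre value lay below the low reference.

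Genes to be described were taken by size: the 12 with the largest difference in each direction among those with an unadjusted p below 0.05, groups that do not overlap and a mean above the low reference in the higher group. There were 425 such genes higher and 239 lower in Ad-Cre. The rule itself asked for separated groups, so their separation is no result. Among the genes with higher means, Serpinb2, the plasminogen activator inhibitor type 2, came first by size (2.94 ± 1.09). Its level was 6.62 in Ad-Cre replicate 1, 11.51 in replicate 2 and between 6.03 and 6.20 in the MMTV-Cre transplants. The MMTV-Cre values were all below the low reference, so the size of the difference is uncertain. Nearly all of that difference came from replicate 2, while replicate 1 lay only a little above the low reference.

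Mmp3, stromelysin 1, a secreted protease that digests matrix proteins, was high in both Ad-Cre tumours. It was at 12.63 and 12.37, whereas MMTV-Cre replicates 1 to 5 had 9.77, 9.80, 9.33, 10.04 and 10.79. The difference was 2.55 ± 0.35, with an unadjusted p of 1.47e-04 and an adjusted p of 0.489. The contrast did not extend to the other tumours of the series. Mmp3 was at 13.20 and 11.01 in the MMTV-Cre Rb/p53 tumours not labelled as transplants, and at 12.61, 12.08 and 9.29 in the p53 tumours, and thus reached or passed the Ad-Cre level in some MMTV-Cre tumours.

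Col12a1, a collagen found along fibrils, was at 11.79 and 12.55 in Ad-Cre and between 8.83 and 10.94 in the MMTV-Cre transplants (2.08 ± 0.56). Zfhx4, a large zinc finger and homeobox factor, was at 11.02 and 9.89 against 7.24 to 8.96 (2.17 ± 0.56). Car12, a carbonic anhydrase of the cell surface, was at 10.08 and 10.55 against 7.47 to 8.88 (2.02 ± 0.47). For these genes the MMTV-Cre transplants also spread widely among themselves. Maob, monoamine oxidase B, was at 9.74 and 9.05 against 6.80 to 8.71 (2.04 ± 0.54). In normal tissue Maob lay between 10.89 and 11.30 and Zfhx4 between 9.63 and 10.20, above most of the transplants.

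Several of the remaining genes owed their rank mainly to Ad-Cre replicate 2. Cxcl5, a chemokine that attracts neutrophils, was at 8.27 in replicate 1 and 10.19 in replicate 2, against 8.25 in MMTV-Cre replicate 5 and 6.50 to 7.39 in the other 4 (2.02 ± 0.62). Il1r2, the decoy receptor for interleukin 1, was at 9.12 and 11.11 against 6.99 to 9.01 (1.74 ± 0.68). Crispld1 was at 8.40 and 10.70 against 6.95 to 8.38 (2.02 ± 0.62). In each of these the lower Ad-Cre value only just exceeded the highest MMTV-Cre value. Lgi2 (8.59 and 9.78 against 6.58 to 8.58, 1.66 ± 0.66) followed the same pattern. Gpr149, an orphan receptor (8.48 and 9.55 against 6.27 to 8.24, 1.96 ± 0.57), was also higher in replicate 2. Without replicate 2 the Gpr149 difference was still 1.425.

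**Figure D2:**
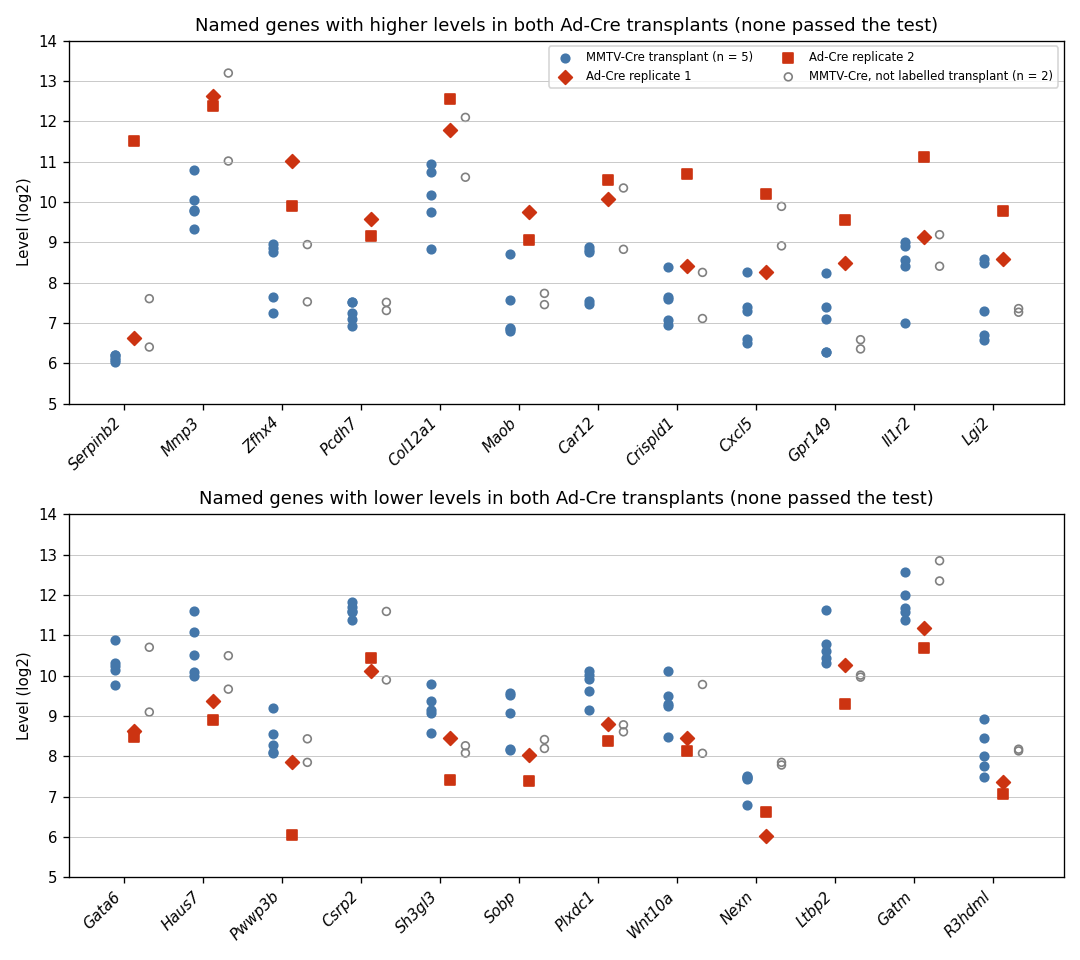
Levels (log2, y axis) of the 12 genes with higher means (upper panel) and the 12 with lower means (lower panel) in the Ad-Cre transplants, each point 1 tumour; the genes were chosen for groups that do not overlap, and none passed the adjusted threshold. Mmp3 and Pcdh7 were high in both Ad-Cre tumours, Serpinb2 almost only in replicate 2, and the open circles show that some tumours not labelled as transplants reach the Ad-Cre level of Mmp3, Col12a1, Cxcl5, Car12 and Csrp2.

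Lower means in Ad-Cre were smaller in size and more even between the 2 tumours. Csrp2, a LIM domain protein of smooth muscle and stellate cells, was at 10.11 and 10.43 in Ad-Cre. In MMTV-Cre replicates 1 to 5 it was at 11.70, 11.84, 11.58, 11.61 and 11.38, so that even the lowest of these lay well above the higher Ad-Cre value. The difference was -1.35 ± 0.15 (95% interval -1.70 to -1.0), with an unadjusted p of 3.39e-05 and an adjusted p of 0.334. Outside the transplants Csrp2 ranged widely: 11.59 and 9.89 in the other Rb/p53 tumours, and 9.76 to 10.27 in normal tissue.

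Gata6, a zinc finger transcription factor of endoderm and heart, had the largest negative difference. Its level was 8.63 and 8.48 in the Ad-Cre tumours against 9.76, 10.89, 10.23, 10.14 and 10.30 in MMTV-Cre replicates 1 to 5. The difference was -1.71 ± 0.27, with an adjusted p of 0.631. Normal mammary tissue had 9.62 to 9.99. The Ad-Cre tumours were thus below both the other transplants and normal tissue, though 1 tumour not labelled as a transplant (9.09) and 1 p53 tumour (8.84) came near them.

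Haus7, a subunit of the augmin complex that seeds microtubules in the spindle, was at 9.38 and 8.89 against 9.98 to 11.61 (-1.52 ± 0.45). Plxdc1, a transmembrane protein of tumour endothelium, was at 8.80 and 8.37 against 9.14 to 10.11 (-1.18 ± 0.27). Sh3gl3, an endophilin that acts in endocytosis, was at 8.44 and 7.42 against 8.57 to 9.80 (-1.26 ± 0.37). In each the gap between the groups was narrower than the range of the MMTV-Cre transplants. Ltbp2, which lies along elastic microfibrils, was at 10.26 and 9.31 against 10.30 to 11.63 (-0.97 ± 0.40). Gatm, the first enzyme of creatine synthesis, was at 11.17 and 10.67 against 11.38 to 12.56 (-0.92 ± 0.32). Nexn, an actin-binding protein of muscle, was at 6.03 and 6.62 against 6.80 to 7.50 (-1.01 ± 0.24), near or below the low reference in Ad-Cre. Pwwp3b (-1.50 ± 0.50), Sobp (-1.19 ± 0.46) and R3hdml (-0.91 ± 0.37) complete the set, and Pwwp3b was at 7.85 in Ad-Cre replicate 1 but at 6.04, below the low reference, in replicate 2.

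The list of 23 matrix proteases and their inhibitors, all measured, held 4 genes at an unadjusted p below 0.05, all higher in Ad-Cre, beside 2.9% of all genes. The list's median difference was 0.12 beside -0.03 over all genes, so most of its members did not share the difference seen for a few. Mmp10, stromelysin 2, was at 10.17 and 9.32 in Ad-Cre against 8.12, 7.53, 8.28, 8.05 and 8.86 (1.58 ± 0.36, adjusted p = 0.797). Mmp13, a collagenase, was at 12.17 and 12.01 against 8.77, 8.07, 8.80, 9.45 and 12.30 (2.61 ± 1.04). The highest Mmp13 value of the 7 therefore belonged to MMTV-Cre replicate 5, and the groups overlapped. Ctsl, the lysosomal protease cathepsin L, was at 12.98 and 13.07 against 12.27 to 12.85 (0.44 ± 0.18). Mmp9, a gelatinase, showed no such gap, with 11.58 and 13.02 against 10.37 to 13.17 (0.04 ± 0.78). As with Mmp3, the tumours not labelled as transplants had Mmp10 at 12.19 and 10.22, at or above the Ad-Cre level.

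Mmp13, Mmp3 and Mmp10 are neighbours in one cluster of protease genes on chromosome 9, on the same strand. The 100 bases before each annotated start are shown because these 3 genes had the largest differences of the list. The sequences are from RefSeq (GRCm38.p6, plus strand), and capitals mark the motif TGAGTCA or its reverse complement TGACTCA, which the AP-1 factors, pairs of Fos and Jun proteins, are known to bind.
Mmp13, chr9:7272414-7272513: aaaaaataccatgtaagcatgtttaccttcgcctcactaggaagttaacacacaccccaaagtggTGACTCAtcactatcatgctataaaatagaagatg
Mmp3, chr9:7445722-7445821: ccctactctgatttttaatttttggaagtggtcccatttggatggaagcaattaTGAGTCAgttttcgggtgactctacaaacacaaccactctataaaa
Mmp10, chr9:7502242-7502341: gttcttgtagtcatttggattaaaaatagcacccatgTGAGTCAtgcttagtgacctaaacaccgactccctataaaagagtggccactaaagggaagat
Each window holds 1 match, beginning 35 bases before the start in Mmp13, 46 in Mmp3 and 63 in Mmp10. Searched the same way on both strands, 619 of 32851 promoter windows of this length (1.88%) held a match. The 3 genes were taken for their differences and from one cluster, so setting them against this share is no test. The windows of the other genes of the cluster were not looked at singly. A match is a description of the letters and was not tested as a binding site. Among mRNAs of the AP-1 factors, Fos differed by -0.15 ± 0.29, Jun by -0.37 ± 0.26, Fosl1 by 0.12 ± 0.36 and Junb by -0.01 ± 0.22. In each of these the groups overlapped. A part of AP-1 in the protease levels was not tested.

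The protease cluster lies next to Yap1, Birc2 and Birc3 on this chromosome, so the 22 protein-coding genes from Casp1 to Cfap300 were read in order, all 22 of them measured. Yap1 is the effector of the Hippo pathway, and Birc2 and Birc3 encode inhibitors of apoptosis. Yap1 was at 12.15 in Ad-Cre replicate 1 and 10.75 in replicate 2, against 10.27, 10.11, 10.28, 10.30 and 13.46 in MMTV-Cre replicates 1 to 5. Birc2 was at 10.51 and 8.99 against 8.39, 8.37, 8.58, 8.43 and 12.43. Birc3 was at 11.04 and 10.001 against 9.77, 9.58, 9.76, 9.71 and 12.31. High levels were thus those of MMTV-Cre replicate 5 and, to a lesser degree, Ad-Cre replicate 1, so the difference between the groups was small beside its error (Yap1 0.57 ± 0.96, Birc2 0.52 ± 1.17, Birc3 0.29 ± 0.77).

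The genes from Tmem123 to Cfap300 were high in the same tumours. Cfap300, a cilia gene, was at 11.91 in Ad-Cre replicate 1, 8.76 in replicate 2 and 13.24 in MMTV-Cre replicate 5, with the other 4 MMTV-Cre transplants between 8.69 and 9.65. Tmem123 was at 13.18, 12.28 and 13.65 in the same tumours, with 11.64 to 12.14 in the others. Dcun1d5, which lies apart from these and beside Dync2h1, was at 12.69, 10.66 and 13.16, with 10.10 to 10.70 in the others. Mmp7, Mmp20 and Mmp27, which lie between, were highest in MMTV-Cre replicate 5 (7.50, 6.86 and 7.62). In Ad-Cre replicate 1 they were at 6.62, 6.24 and 6.41, near the other transplants. Dync2h1, Casp1 and Casp4 also differed from this pattern. Dync2h1 was high in MMTV-Cre replicate 5 alone (11.98, against 8.22 and 7.98 in Ad-Cre). Casp1, which encodes the protease that activates interleukin 1 beta, was at 10.79 and 10.95 in Ad-Cre and 11.05 in MMTV-Cre replicate 5, against 9.79 to 10.14 in the other 4. Casp4 was at 9.91 and 9.78 in Ad-Cre and 10.03 in MMTV-Cre replicate 5, against 8.80 to 9.01 in the other 4. Among the transplants, Mmp3 and Mmp10 ran otherwise. Both were higher in each Ad-Cre tumour than in MMTV-Cre replicate 5, whose Yap1 was the highest of the 7. Ad-Cre replicate 2 had Mmp3 and Mmp13 close to the levels of replicate 1 while its Yap1 and Cfap300 stayed near those of the other transplants. In the nulliparous MMTV-Cre Rb/p53 tumour, not labelled as a transplant, Yap1 and the proteases were high together. Its Yap1 was at 13.51, Mmp13 at 13.82, Mmp3 at 13.20 and Mmp10 at 12.19, each above all 7 transplants. The parous tumour had Yap1 at 10.16, Mmp3 at 11.01 and Mmp10 at 10.22. A link between the proteases and the rest of the region was not tested. DNA was not measured, so the number of gene copies in this region was not tested.

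**Figure D3:**
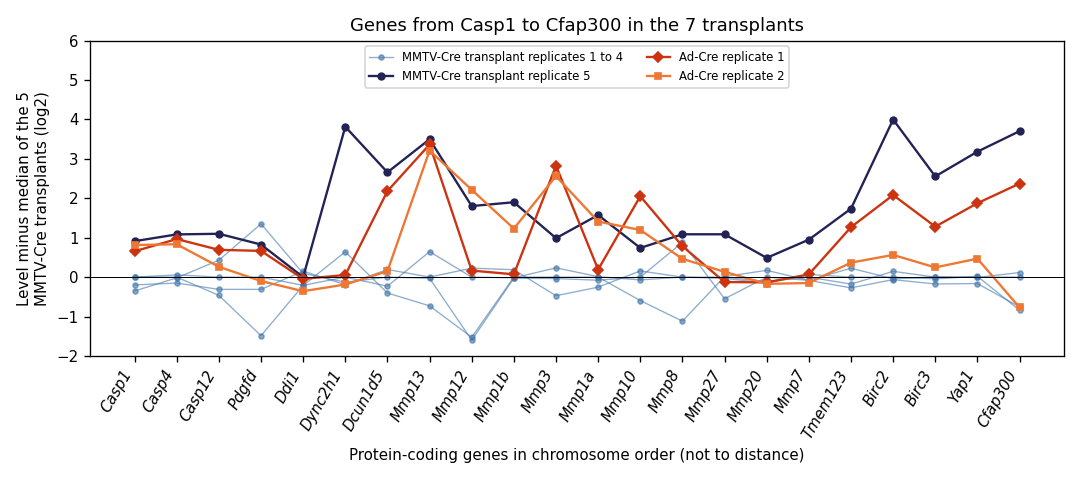
The 22 protein-coding genes from Casp1 to Cfap300 in chromosome order (x axis, spacing not to distance), each line 1 transplant and each point its level minus the median of the 5 MMTV-Cre transplants (log2, y axis). MMTV-Cre replicate 5 and Ad-Cre replicate 1 lie above the others from Tmem123 to Cfap300 and at Dcun1d5, whereas both Ad-Cre tumours have their highest points at Mmp13 and Mmp3.

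Rb1 was low in all 7 transplants: 9.37 and 9.84 in Ad-Cre and 9.29, 9.43, 9.56, 9.70 and 9.92 in MMTV-Cre, against 10.93 to 11.50 in normal tissue. Whether the probe set lies in the deleted part is not given, so this level alone does not check the labels. Rb1 differed by 0.02 ± 0.20 between the routes, with a 95% interval from -0.45 to 0.49. Trp53 was not analysed here, since no probe set carried that symbol alone.

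Genes of the cell cycle showed no common difference by route. Of 37 measured E2F targets and replication genes, 19 had the higher and 18 the lower mean in Ad-Cre, with a median of 0.01. A single one had an unadjusted p below 0.05: Ccne2, cyclin E2, at 9.60 and 9.57 in Ad-Cre against 8.44 to 9.45 (0.63 ± 0.26). Its relative Ccne1, cyclin E1, pointed the other way, at 9.64 and 9.85 against 9.72 to 10.30 (-0.31 ± 0.16). E2f1 differed by -0.05 ± 0.25 and the proliferation marker Mki67 by -0.13 ± 0.14 (95% interval -0.47 to 0.21). The 28 mitosis genes had a median of 0.03 and 0 at an unadjusted p below 0.05.

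Among 14 genes of the Rb family, CDK inhibitors and cyclins D, 0 had an unadjusted p below 0.05. Cdkn2a, whose products p16 and Arf act upstream of Rb and p53, was at 11.05 and 10.66 against 10.89, 8.30, 10.26, 10.32 and 11.01 (0.70 ± 0.69). Apart from MMTV-Cre replicate 2, every transplant lay far above the 7.43 to 7.75 of normal tissue. Of 23 measured p53 targets, 1 had an unadjusted p below 0.05, Pmaip1, which encodes the death-promoting protein Noxa (0.48 ± 0.19). The list mean of p53 targets was 9.26 and 9.42 in Ad-Cre and 9.12 to 9.24 in MMTV-Cre. The list's median difference was 0.10 (0.16 without Ad-Cre replicate 1 and 0.04 with quantile normalisation). Mdm2, which marks p53 for breakdown and is itself a p53 target, differed by 0.07 ± 0.22, and the MYC proto-oncogene Myc by -0.06 ± 0.28.

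The labels call the tissue a mammary tumour, and both keratin and vimentin mRNA were present at high level in all 7. Vim, the intermediate filament of mesenchymal cells, lay between 13.94 and 14.13 in every transplant (difference -0.07 ± 0.09). Krt8, a keratin of luminal cells, was at 10.95 and 11.9997 in Ad-Cre against 11.90, 13.24, 12.83, 13.03 and 12.28 in MMTV-Cre (-1.18 ± 0.42, unadjusted p = 0.0264). The groups overlapped, since Ad-Cre replicate 2 lay above MMTV-Cre replicate 1. Its partner Krt18 was at 9.21 in Ad-Cre replicate 1, below all other transplants, and at 10.84 in replicate 2, inside the MMTV-Cre range of 10.15 to 10.96 (-0.64 ± 0.42).

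Luminal genes did not move together. Of the 26 measured, 13 had a higher and 13 a lower mean in Ad-Cre, and those at an unadjusted p below 0.05 were 2 higher and 1 lower, beside 2.9% and 2.41% of all genes. Both Ad-Cre tumours lay below all MMTV-Cre transplants for 4 of the 26, beside 7.18% of all genes. These were Elf3 (-0.48 ± 0.29), Krt7 (-0.97 ± 0.61), Krt19 and Pgr, the progesterone receptor (-1.01 ± 0.66). Their unadjusted limma p ran from 0.139 to 0.168. Higher means, all with overlapping groups, included those of Elf5, Kit, Epcam and Cdh1. Elf5, a transcription factor of luminal progenitors and milk-producing cells, was at 7.36 and 9.05 against 6.64 to 7.70 (1.23 ± 0.47), and Kit, a receptor kinase of luminal progenitors and of mast cells, at 9.34 and 10.16 against 8.09 to 9.68 (1.03 ± 0.41). Epcam, an epithelial adhesion molecule, was at 9.75 and 11.001 in Ad-Cre and at 11.06, 8.01, 7.13, 10.49 and 7.06 in MMTV-Cre (1.62 ± 1.22). Cdh1, E-cadherin, was at 8.09 and 9.57 against 10.06, 7.69, 7.60, 8.91 and 7.86 (0.41 ± 0.74). Among the MMTV-Cre transplants replicates 1 and 4 had the highest levels of both genes, and the Ad-Cre tumours lay inside the MMTV-Cre range. Krt19, another keratin of simple epithelia, was low in both Ad-Cre tumours (6.78 and 6.80) and ranged from 7.09 to 11.89 in MMTV-Cre (-2.03 ± 1.31). In a bulk sample, fewer cells of a type and less RNA per cell cannot be told apart.

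Basal markers were low in both groups. Krt5, a basal keratin, lay between 6.84 and 7.92 in the 7 transplants against 10.81 to 11.27 in normal tissue (difference -0.26 ± 0.28). Krt14, its partner, was at 8.43 and 7.88 against 7.57 to 9.62 (-0.29 ± 0.66), and the basal transcription factor Trp63 differed by -0.08 ± 0.18. The 19 basal and myoepithelial markers had a median of -0.10, with 1 at an unadjusted p below 0.05 (Lgr5, described with the Wnt genes). Esr1, the oestrogen receptor, lay between 8.14 and 8.93 in all 7 tumours and differed by -0.03 ± 0.21, whereas normal tissue had 10.13 to 10.56.

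Of 22 mesenchymal transition genes 1 had an unadjusted p below 0.05, Tnc (1.80 ± 0.71), which encodes the matrix protein tenascin C. The 18 fibroblast markers had a median of 0.25 and 0 at that level. That median was 0.00 without Ad-Cre replicate 2, 0.02 without MMTV-Cre replicate 2, 0.12 without MMTV-Cre replicate 4 and 0.41 without MMTV-Cre replicate 1. The largest difference was that of Lum, the matrix proteoglycan lumican, at 2.14 ± 0.91. Of 35 collagen and matrix genes Col12a1 alone reached an unadjusted p below 0.05, and the list's median was 0.05. Of 16 squamous keratinocyte genes 3 were lower at that level and 0 higher, beside 2.41% and 2.9% of all genes. These were Ivl (-0.27), Krt6b (-0.25) and Sprr3 (-0.22), all with small differences. The list did not fall as a whole: 7 genes had the higher and 9 the lower mean, with a median of -0.01. Its largest difference was a higher one, that of Sprr1b (1.42 ± 0.66), with overlapping groups. The list means of adipocyte genes were 7.87 and 8.06 in Ad-Cre against 7.85 to 9.0 in MMTV-Cre, and those of skeletal muscle genes 7.16 and 7.05 against 7.18 to 7.66.

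Cytokine and neutrophil genes had higher means in the Ad-Cre group, mostly through replicate 2. Of the 14 neutrophil genes measured of 16 listed, 4 were higher at an unadjusted p below 0.05 and 0 lower, beside 2.9% and 2.41% of all genes, and the median difference was 0.78. The list mean was 7.89 in Ad-Cre replicate 1, 8.69 in replicate 2 and 6.83 to 7.80 in MMTV-Cre. Outside the transplants it was 7.80 and 8.28 in the Rb/p53 tumours, and 7.48, 9.80 and 7.46 in the p53 tumours. S100a8 and S100a9 encode the 2 chains of calprotectin, the main cytosolic protein of neutrophils. S100a8 was at 7.95 and 10.56 against 6.72 to 8.0 (1.59 ± 0.67), S100a9 at 8.74 and 10.07 against 7.47 to 8.71 (1.12 ± 0.44), and Ly6g, a surface marker of mouse neutrophils, at 6.99 and 8.30 against 6.45 to 6.90 (1.01 ± 0.32). In each, Ad-Cre replicate 1 lay at the top edge of the MMTV-Cre values and replicate 2 far above it. Without Ad-Cre replicate 2 the list's median was 0.32.

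Of 34 cytokine and chemokine genes, 25 had the higher mean in Ad-Cre, 4 of them at an unadjusted p below 0.05 (2.9% of all genes), and the median was 0.44. The list mean was 8.48 in Ad-Cre replicate 1, inside the MMTV-Cre range of 8.21 to 9.08, and 9.61 in replicate 2, above it. Without Ad-Cre replicate 2 the median turned to -0.12. Cxcl1, a neutrophil attractant, was at 8.28 and 9.33 against 7.89 to 8.32 (0.70 ± 0.27), and Ccl17, which attracts T cells, at 8.92 and 10.26 against 7.43 to 9.11 (1.37 ± 0.54). Il6 alone was even between the Ad-Cre tumours: this inflammatory cytokine was at 6.75 and 6.88 against 5.69, 5.11, 5.90, 5.98 and 5.78 (1.12 ± 0.23, adjusted p = 0.797). All the MMTV-Cre values of Il6 lay below the low reference, so the size of its difference is uncertain, and in the tumours not labelled as transplants it was at 7.16 and 7.32.

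T and NK cell genes held 2 of 18 at an unadjusted p below 0.05, beside 5.31% of all genes. Both were higher in Ad-Cre, encode receptors of NK cells and had overlapping groups. Klrd1, the CD94 receptor chain, was at 7.56 and 8.43 against 6.69 to 7.70 (0.96 ± 0.32), and Ncr1, the NK receptor NKp46, at 8.39 and 9.24 against 6.88 to 8.75 (1.33 ± 0.50). The T cell receptor chain gene Cd3e did not share this and lay between 7.53 and 7.78 in all 7 (-0.11 ± 0.10). Macrophage genes had a median of 0.03 over 22 and 0 at an unadjusted p below 0.05, with list means of 9.89 and 10.37 in Ad-Cre inside the MMTV-Cre range of 9.60 to 10.52. Without Ad-Cre replicate 2 their median was -0.34. Interferon response genes (24 measured, median -0.12) and MHC class II genes (9 measured, median 0.57) likewise had 0 at that level. The MHC class II list mean was 9.80 and 10.65 in Ad-Cre, inside the MMTV-Cre range of 8.03 to 10.87, and its median ran from -0.03 without MMTV-Cre replicate 2, or 0.00 without Ad-Cre replicate 2, to 1.23 without Ad-Cre replicate 1. The list mean of the interferon genes was 8.81 and 9.74 in Ad-Cre against 8.74 to 10.02 in MMTV-Cre, so Ad-Cre replicate 1 was near its lower and replicate 2 near its upper end; the interferon median was -0.58 without replicate 2 and 0.32 without replicate 1.

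**Figure D4:**
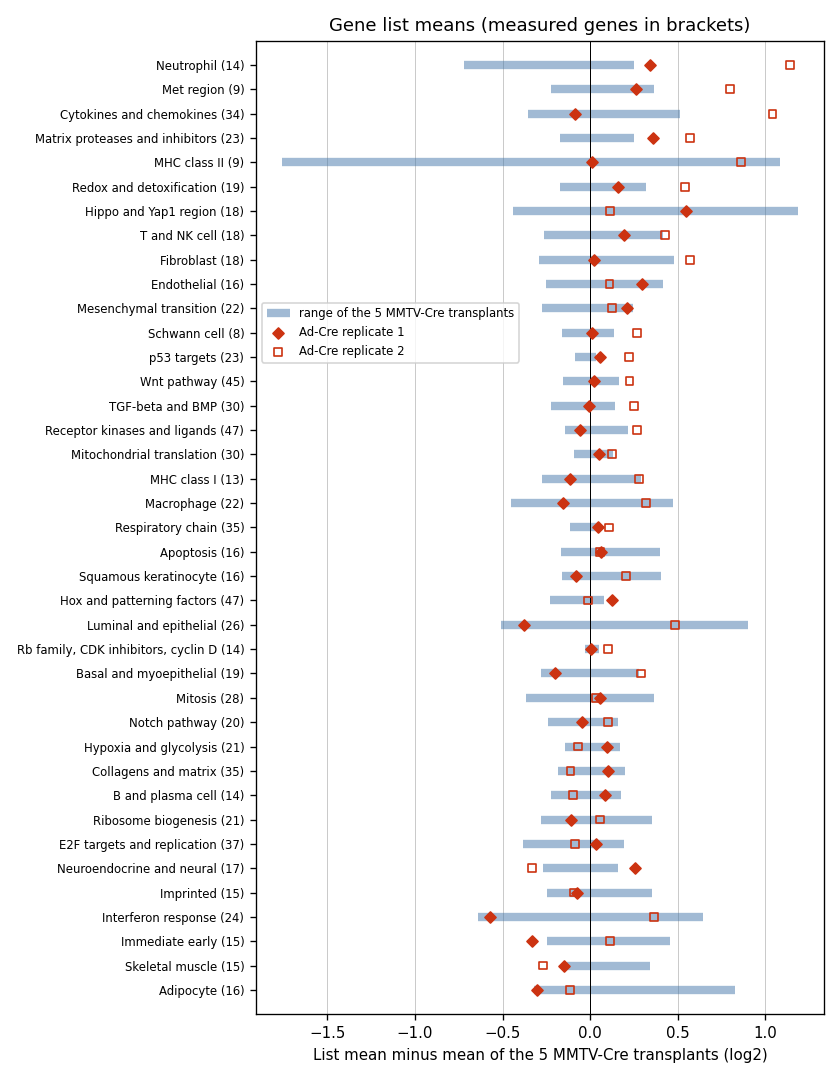
Mean level of each gene list with at least 5 measured genes in the 2 Ad-Cre tumours (diamond, replicate 1; open square, replicate 2), minus the mean of the 5 MMTV-Cre transplants (log2, x axis), with the range of those 5 as a bar; lists are ordered by the sum of both Ad-Cre values. Neutrophil, protease and p53 target means of both Ad-Cre tumours exceed the MMTV-Cre range, and their skeletal muscle means lie below it. For cytokines that of replicate 2 alone exceeds it. The same holds for several other lists, among them Met region, fibroblast, Wnt and receptor kinase genes.

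Rspo3, a secreted protein that strengthens Wnt signals, was at 7.87 and 9.07 in Ad-Cre against 6.68, 7.12, 7.23, 6.87 and 7.15 (1.46 ± 0.31, adjusted p = 0.797). Both Ad-Cre tumours lay above the rest, and above the 6.55 to 6.92 of normal tissue. Lgr5, the receptor for the R-spondins, was at 7.20 and 9.41 against 6.75 to 7.30 (1.26 ± 0.51), so it was high in replicate 2 alone. Wnt10a, a ligand of this pathway, was at 8.46 and 8.14 against 8.48, 10.10, 9.29, 9.24 and 9.49 (-1.02 ± 0.38), and Ad-Cre replicate 1 lay just below MMTV-Cre replicate 1. Nkd2, an inhibitor of the pathway, was at 7.95 and 8.66 against 7.34 to 7.98 (0.60 ± 0.23). Of the 45 Wnt genes measured, 3 were higher and 1 lower at an unadjusted p below 0.05, beside 2.9% and 2.41% of all genes, and the list's median was -0.01.

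Of 47 Hox and patterning genes, 4 were higher and 0 lower at an unadjusted p below 0.05 (2.9% and 2.41% of all genes), with a median of -0.01. Hoxd8 was at 8.94 and 8.36 in Ad-Cre against 7.78, 7.22, 7.93, 7.71 and 7.31 (1.06 ± 0.24). Hoxc9 was at 7.09 and 7.75 against 6.64 to 6.97 (0.63 ± 0.18), and Hoxc6 at 7.21 and 8.05 against 6.53 to 7.37 (0.76 ± 0.29). Hox genes encode the factors that set position along the body axis, and these 3 together with En1 were all higher in normal mammary tissue than in the MMTV-Cre transplants. Normal tissue had Hoxd8 at 8.53 to 9.14, Hoxc9 at 8.57 to 9.0 and Hoxc6 at 8.84 to 9.60. The Ad-Cre tumours reached that level for Hoxd8 in replicate 1 and stayed below it for Hoxc9 and Hoxc6.

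Met, the receptor for hepatocyte growth factor, was at 11.66 in Ad-Cre replicate 1 and 13.60 in replicate 2, against 10.65, 10.81, 11.91, 11.12 and 10.99 (1.53 ± 0.53, unadjusted p = 0.0233). Replicate 1 lay inside the MMTV-Cre range, and replicate 2 was alone in its high level among the transplants. The mean of 9 Met region genes was 10.04 in replicate 2. Outside the transplants this mean was 9.18 and 11.16 in the Rb/p53 tumours, and 11.41, 8.53 and 11.11 in the p53 tumours. Neighbours of Met differed in replicate 2: Capza2 was at 13.60 against 11.69 to 12.37 in MMTV-Cre, whereas Cav1, caveolin 1, was at 11.23, below the 11.91 to 12.47 of MMTV-Cre. Wnt2, which lies in the same region, was at 7.24 and 9.66 against 7.25 to 7.68. Epha7, an ephrin receptor, was higher in both Ad-Cre tumours at 8.51 and 8.25 against 6.74 to 7.95 (0.85 ± 0.32). Of 47 receptor kinase and ligand genes, 3 were higher and 0 lower at an unadjusted p below 0.05, beside 2.9% and 2.41% of all genes, and the median was 0.00.

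Housekeeping programmes were close between the routes. The 35 respiratory chain genes had a median of 0.05, the 30 genes of mitochondrial translation 0.08, the 21 hypoxia and glycolysis genes -0.01 and the 21 ribosome biogenesis genes -0.02. Without Ad-Cre replicate 1 the hypoxia and glycolysis median was -0.26. Within these lists a few genes had an unadjusted p below 0.05, among them the glycolytic enzyme gene Pkm (0.43 ± 0.13), the respiratory chain genes Ndufb8 (0.27 ± 0.11) and Cox5a (0.31 ± 0.12), and Mrpl16 (0.32 ± 0.11) and Mrpl3 (0.25 ± 0.09), proteins of the mitochondrial ribosome. Of 15 immediate early genes 12 had the lower mean in Ad-Cre, as had 56.8% of all genes, and 0 had an unadjusted p below 0.05. Their median was -0.15, and it was 0.09 without Ad-Cre replicate 1 and -0.36 without replicate 2. Xist, the RNA of the inactive X chromosome, was at 12.42 and 12.58 against 10.51 to 12.53 (0.83 ± 0.54).

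Many genes differed between the 2 Ad-Cre tumours themselves. Replicate 1 was higher by at least 1 for 355 genes and replicate 2 for 726. The genes named here were chosen after their values were seen, most of them from the largest of these differences, and others with larger differences are not named. Mast cell genes were high in replicate 2: Cpa3, the mast cell carboxypeptidase, was at 5.71 in replicate 1 and 11.33 in replicate 2, Mcpt4, a mast cell chymase, at 5.73 and 10.18, and Mcpt2, another mast cell protease, at 4.71 and 11.17. In the MMTV-Cre transplants they were high in replicate 4 alone (9.78, 7.85 and 9.75), and normal tissue held Cpa3 at 11.67 to 12.04 but Mcpt2 at 4.56 to 4.87. Milk protein genes followed a similar order in the Ad-Cre tumours: the casein gene Csn2 was at 9.71 and 13.57 against 7.62 to 11.87 in MMTV-Cre, and Wap, the whey acidic protein gene, at 7.47 and 9.45 against 7.35 to 7.72. Tns4, a protein of focal adhesions, was at 7.35 and 12.20 against 7.36 to 8.03, and Grem1, an antagonist of bone morphogenetic proteins, at 8.47 and 12.42 against 7.56 to 10.16.

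Ogn and Acan, both chosen after their values were seen, were low in replicate 2, although its mean over the collagen and matrix list (9.17) lay inside the MMTV-Cre range of 9.10 to 9.49. Ogn, the proteoglycan osteoglycin, was at 11.62 in replicate 1 and 7.64 in replicate 2 against 10.61 to 11.95 in MMTV-Cre, and Acan, the cartilage proteoglycan aggrecan, at 10.08 and 6.95 against 9.54 to 11.03. Replicate 1 lay inside the MMTV-Cre range for both. Nrn1, a neuronal surface protein, was at 11.87 and 5.94, and among the MMTV-Cre transplants it was likewise either high (11.81, 10.34 and 10.72 in replicates 1, 2 and 4) or low (6.24 and 5.92 in replicates 3 and 5). Lhx8, a LIM homeobox factor, was at 9.90 in replicate 1 and 6.34 in replicate 2, with 8.44 in MMTV-Cre replicate 1 and 6.30 to 6.68 in the other 4. Dmbx1, called when replicate 1 was set alone against the MMTV-Cre transplants (2.02, adjusted p = 0.0208), was at 9.32 in replicate 1, 6.97 in replicate 2 and 7.24 to 7.34 in MMTV-Cre.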

How the data were processed

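The values are log2 levels, which the authors made by RMA in Partek 5.6, per the submitters' processing notes; the build of the array annotation and further settings were not given in the sources used here. The deposited table holds 35556 probe sets. Probe sets with 1 gene symbol were kept, the brightest of a symbol where there were several, which left 19938 genes.

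Genes were tested with limma 3.58.1 in R 4.3.3 (lmFit and eBayes, two-sided) on the 7 transplant arrays, as Ad-Cre (n = 2) minus MMTV-Cre (n = 5), with Benjamini-Hochberg adjustment over all genes at 0.05. Differences are given with their standard error. The fit was also run on simulated data as a check of the code. How many true differences it would miss in 7 arrays is not given here. The number of arrays limits the precision, and no batch is given.

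The members and the 41 gene lists were chosen with earlier results of these data known. Named genes are the 12 largest separated differences in each direction, a fixed set of 21, and up to 4 genes of lowest p in a list described; predicted genes, small RNAs, olfactory receptors and immunoglobulin segments were skipped. Mmp9, Krt19, Cd3e, Cav1, the AP-1 factors, neighbours of Yap1, genes called in wider fits and genes that differed between the Ad-Cre tumours were added after their values were seen. Alternatives covered the variance prior (trend, robust), array weights, a filter at the 25th percentile, quantile or cyclic loess normalisation, the treatment of probe sets, a minimum fold of 1, wider sets of arrays, and omission of single arrays.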

Additional observations from a re-analysis of the deposited data

Results flagged for a closer look

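Among 86 values per tumour, 45 named genes and 41 list means, 14 had an MMTV-Cre transplant whose distance from the nearest of the others exceeded the critical share (0.71) of the group's range; chance flags about 1 in 20 such groups. The 2 Ad-Cre tumours are too few for this rule. MMTV-Cre replicate 5 gave 7 of them. Its level was 13.46 for Yap1 (others 10.11 to 10.30), 12.43 for Birc2 (8.37 to 8.58) and 12.31 for Birc3 (9.58 to 9.77). Its list means were 11.22 for the Hippo and Yap1 region (9.59 to 9.88) and 10.09 for apoptosis genes (9.53 to 9.65). They were 9.12 for p53 targets (9.21 to 9.24) and 7.32 for Hox and patterning genes (7.55 to 7.62). Birc2 and Birc3 belong to both the region list and the apoptosis list, and Yap1 belongs to the region list. The flags of these genes and of these lists are therefore not separate results, and the apoptosis mean does not show a rise of its other members.

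MMTV-Cre replicate 1 had a low Nexn level of 6.80 (others 7.42 to 7.50) and a high squamous list mean of 7.31 (6.74 to 6.87). MMTV-Cre replicate 2 had a low Cdkn2a level of 8.30 (10.26 to 11.01) and a low neutrophil list mean of 6.83 (7.65 to 7.80). MMTV-Cre replicate 3 had a skeletal muscle list mean of 7.66 (7.18 to 7.26). MMTV-Cre replicate 4 had a Krt5 level of 7.92 (6.84 to 7.07) and an adipocyte list mean of 9.0 (7.85 to 8.12).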

How the results depend on the processing

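The absence of calls held under the intensity trend, array weights, low filter, both normalisations, both uses of probe sets, the added fold and the fit of the 9 Rb/p53 tumours. It did not hold with 12 tumours (1 higher), 17 arrays (7 higher) or 2 against 7 MMTV-Cre tumours (1 higher). With each array left out, 0 to 52 genes were called higher and 0 to 2 lower, and both upper values arose without Ad-Cre replicate 1. The count at an unadjusted p below 0.05, 1058 of 19938 genes at first, was 611 with array weights and 427 with 12 tumours. With other totals tested, it was 634 of 14953 genes with the low filter and 1829 of 35556 when all probe sets were tested. It was larger without Ad-Cre replicate 1, a fit that leaves a single Ad-Cre tumour. The median of all genes stayed between -0.04 and 0.00. No paired analysis was possible because the groups share only 1 tumour number, and no label ties it to a donor or batch.

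Of 810 recomputed differences of named genes, 783 kept their direction and side of the threshold, 4 passed it (Serpinb2 without Ad-Cre replicate 1, Pcdh7 in 3 fits) and 23 changed sign, none of them past the threshold in either case; the cause was not tested. Rb1 became -0.0162 with quantile normalisation and -0.0247 with cyclic loess, and in 2 against 7 E2f1 became 0.0617 and Esr1 0.0843. The other sign changes came from leaving out 1 array, which gave differences for Rb1 -0.2133 to 0.2562, E2f1 -0.2071 to 0.099, Mdm2 -0.1677 to 0.3106, Krt14 -0.5676 to 0.0012, Krt18 -1.4532 to 0.1804, Trp63 -0.1736 to 0.0146, Esr1 -0.1508 to 0.082, Cdh1 -0.3318 to 1.1484, Yap1 -0.1377 to 1.2688, Birc2 -0.2439 to 1.3135, Birc3 -0.2238 to 0.815 and Myc -0.2019 to 0.0517. Of 738 list medians 22 moved beyond the spread between replicates. A gene that missed the threshold was not shown to be alike between the routes, and MMTV-Cre levels below 6.37 limit the sizes given for Serpinb2, Il6, Naalad2 and Gabrb1, among others.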
